A study of Homo sapiens with 15 samples.

Results

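Cytosolic extracts (CEs) can form RNA-containing condensates when a trigger is added. A pellet collected from a reaction without any trigger shows which mRNAs sediment at baseline. Here the RNA of that mock pellet was compared with the RNA of the input extract. The libraries were chosen by their labels, mock replicates 1 to 3 against Input replicates 1 to 3, which are 6 of the 15 libraries of the series. Genes entered the comparison when each of the 5 conditions had 2 or more replicates with 10 or more counts, and 16612 of 57500 genes did so, 13533 of them protein-coding.

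CEs came from U2OS cells, a human osteosarcoma line that the labels give as wild type, whereas the study's text speaks of condensates of U2OS cells with YFP-tagged G3BP1. Mock reactions were in vitro translation reactions with nothing added, kept for 2 h at 37 °C. They were spun at 14000 g for 10 min, and the pellets were washed. In droplets of untreated extract the study saw small foci of tagged G3BP1 after such an incubation, but no condensates. It also names cellular debris as material that its pellets could hold. The other pellets came from the same kind of reaction with dsRNA (250 nM), the eIF4A helicase inhibitor silvestrol (2 µg/ml) or the molecular crowder PEG (1%). The input was extract that had not been pelleted, and whether it had also been incubated is not stated in the sources used here, so incubation and sedimentation cannot be told apart. Poly(A)-selected RNA was sequenced, and the labels call the replicates of each group biological replicates.

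Heavy particles such as polysomes, remnants of the endoplasmic reticulum, mitochondria and RNA granules can all sediment in a spin of this kind. Stress granules form when mRNAs released from translation assemble with G3BP1 and other RNA-binding proteins, and long mRNAs are known to gather in them more readily than short ones. mRNAs of secreted and membrane proteins are translated on the endoplasmic reticulum, mitochondrial mRNAs lie inside the organelle, and mRNAs of ribosomal proteins carry a pyrimidine tract at their start that couples their translation to growth signals.

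Total counts were between 23101982 and 46939993 in the input and between 32477292 and 39903656 in the mock pellet. Values per library are given as CPM, edgeR's depth-corrected counts after TMM scaling, and changes as log2 fold changes of mock pellet over input with their standard error (SE). Genes with a Benjamini-Hochberg adjusted p under 0.05 in edgeR's quasi-likelihood test were called enriched (higher in the pellet) or depleted (lower). All values are shares of a library, so the absolute amount of an mRNA that sedimented is unknown. Replicate 1 stood apart in both groups. The chi-square per degree of freedom between libraries was 67.9 to 83.2 where replicate 1 was involved, against 4.97 between input replicates 2 and 3 and 9.68 between mock replicates 2 and 3. Of 12 mesenchymal and osteoblast markers fixed for this cell line, 11 were over 1 CPM in all 6 libraries, and the 7 blood markers summed to less than 1 CPM, at 0.469 to 0.979 in each library. Of 7 epithelial markers 4 were kept, and the list summed to 23.1 to 35.0 CPM in the input and 37.5 to 53.4 CPM in the pellet. Of 6 hepatocyte markers 1 was kept, and the list summed to 9.44 to 23.6 CPM in the input and 7.12 to 16.2 CPM in the pellet. Their part in the results was not tested.

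In the mock pellet 2916 genes were enriched and 2625 depleted, 33.4% of the genes tested, with 17.6% in the higher and 15.8% in the lower direction. The 3 mock and 3 input libraries did not overlap for 8325 genes (50.1%). A fit with replicate number as a blocking factor called 5404 genes enriched and 5003 depleted (62.6%, with 32.5% and 30.1% in the 2 directions), and without replicate 1 of either group the counts were 5296 and 5086. Leaving out 1 library lowered the calls over all genes in most sets. Enriched and depleted genes numbered 1683 and 1229 without mock replicate 2, and 1335 and 1017 without mock replicate 3. They numbered 1694 and 1922 without input replicate 2, and 1751 and 1841 without input replicate 3. Class counts with a library left out, given below, are to be read beside these. The main fit and the fits with 1 library left out hold no replicate term, so they set the pairing by replicate number aside. Most changes were modest: 505 enriched and 226 depleted genes differed by more than 1 on the log2 scale. GC content of the transcripts moved with these calls. Enriched genes made up 52.6% of the calls without and 39.7% with an offset for GC content, which left 1808 enriched and 2741 depleted genes. With the block and the GC offset together 4472 genes were enriched and 5417 depleted.

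The nuclear protein-coding genes with the largest changes in each direction are described first. SLTM, a nuclear RNA-binding protein (ENSG00000137776, GRCh38 chr15:58879045-58933653, minus strand), stood at 268, 201 and 214 CPM in the input and at 656, 618 and 631 CPM in the pellet. All 3 mock libraries lay above all input libraries, and SLTM was 2.85-fold higher (log2 1.51, SE 0.14, adjusted p = 0.00358). EIF5B, the GTPase that joins the ribosomal subunits (ENSG00000158417, chr2:99337353-99401326, plus strand), stood at 377, 209 and 228 CPM in the input and at 814, 634 and 655 CPM in the pellet. Again the groups did not overlap, and the log2 fold change was 1.40 (SE 0.24, adjusted p = 0.00627).

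HSP90AA1, the inducible cytosolic HSP90 chaperone (ENSG00000080824, chr14:102080738-102139699, minus strand), was among the most abundant of these mRNAs. It had 1244, 739 and 734 CPM in the input and 2743, 1939 and 2187 CPM in the pellet (log2 1.37, SE 0.25, adjusted p = 0.00713). Its paralogue of the endoplasmic reticulum, HSP90B1, changed by a similar amount (log2 1.47, SE 0.17). The constitutive cytosolic paralogue HSP90AB1 was not called, with 2611, 1841 and 1758 CPM in the input and 1976, 1483 and 1421 CPM in the pellet. Its groups overlapped, and its log2 value was -0.31 (SE 0.20, adjusted p = 0.272). Heat shock proteins and DNAJ co-chaperones as a list had 8 of 61 enriched (13.1%) and 10 depleted (median -0.21), and 12 and 28 with the block. With 1 library left out 5 to 10 of them were enriched and 2 to 15 depleted, the fewest depleted without mock replicate 2 or 3. NKAP (1.46), COL16A1 (1.45), NEXN (1.43), HMGN5 (1.43), IGSF8 (1.38) and VASN (1.35) completed the 10 leading log2 fold changes among well-expressed genes. IGSF8 was not called without mock replicate 2, and neither IGSF8 nor VASN was called without mock replicate 3.

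In the opposite direction UMAD1, a gene of the UBAP1 and MVB12 domain family (ENSG00000219545, chr7:7640711-7968020, plus strand), fell the furthest. It stood at 22.5, 26.2 and 25.4 CPM in the input and at 4.28, 5.92 and 5.81 CPM in the pellet, 4.50-fold lower (log2 -2.17, SE 0.16, adjusted p = 0.00358). YBX1, an abundant cold-shock domain mRNA-binding protein and stress granule component (ENSG00000065978, chr1:42682427-42702349, plus strand), stood at 2918, 2071 and 2217 CPM in the input and at 982, 599 and 709 CPM in the pellet. The groups were well separated, and YBX1 mRNA was 3.07-fold lower (log2 -1.62, SE 0.22, adjusted p = 0.00391). CYCS, cytochrome c of the respiratory chain (ENSG00000172115, chr7:25120091-25125361, minus strand), stood at 406, 210 and 223 CPM in the input and at 122.9, 93.3 and 89.2 CPM in the pellet. It was depleted in each replicate pair (log2 -1.42, SE 0.27, adjusted p = 0.00891). MRPL17 (-1.52), LSM3 (-1.50), DERA (-1.43), CDKN3 (-1.42), STX8 (-1.38), NME7 (-1.36) and PNPLA4 (-1.35) followed on the log2 scale. All 10 of the leading depleted genes were called with any 1 library left out.

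**Figure D1:**
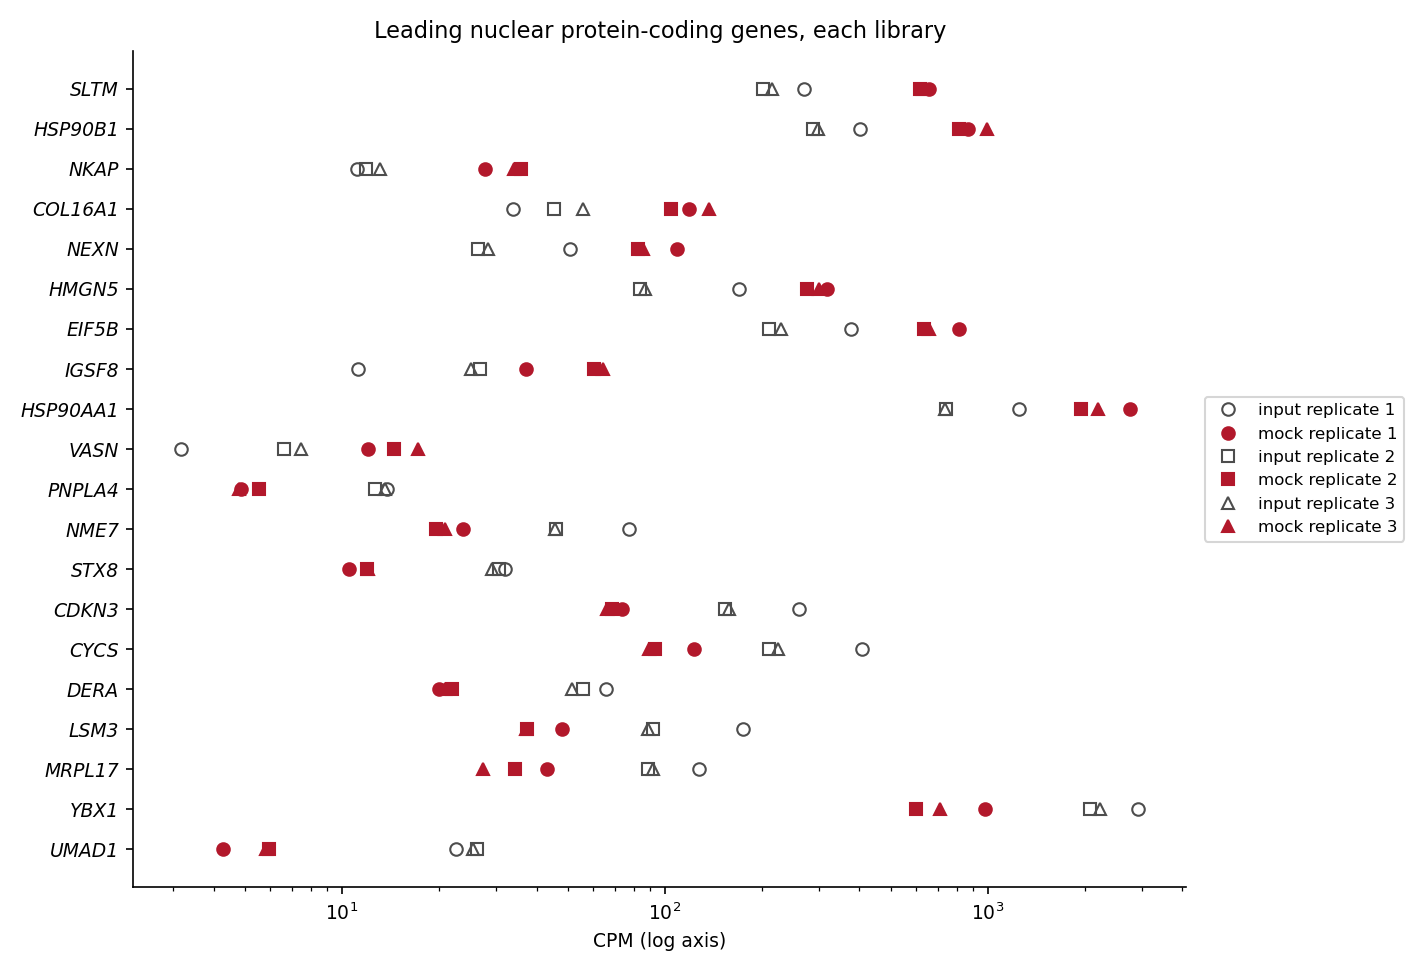
CPM on a log axis (horizontal) of the 10 enriched and 10 depleted nuclear protein-coding genes with the largest changes (vertical), with open symbols for the 3 input and filled symbols for the 3 mock libraries, and 1 shape per replicate. For each gene the filled and open symbols form separate groups, and replicate 1 of the input lies apart from the other input libraries for EIF5B, HMGN5, CYCS and LSM3.

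Several leading mRNAs carried long runs of purines (A and G) in their coding sequence. The codons of lysine and glutamate (AAA, AAG, GAA and GAG) hold purines only, though the runs hold other codons too. The purine-richest 60-base coding windows of enriched and, for contrast, of depleted genes are shown so that these runs can be read beside each other. Only leading genes with low GC content (under 46.5%) were considered for this display. Windows were read 5′ to 3′ from GENCODE release 29 coding sequences on GRCh38, purines are in capitals, and only windows inside 1 exon are shown.
EIF5B, enriched: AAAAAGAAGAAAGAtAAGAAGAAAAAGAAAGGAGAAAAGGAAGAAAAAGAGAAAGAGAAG
HSP90AA1, enriched: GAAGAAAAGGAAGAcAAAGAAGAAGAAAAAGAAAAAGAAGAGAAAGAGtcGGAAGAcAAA
HMGN5, enriched: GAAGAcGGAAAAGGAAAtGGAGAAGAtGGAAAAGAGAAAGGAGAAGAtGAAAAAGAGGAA
NEXN, enriched: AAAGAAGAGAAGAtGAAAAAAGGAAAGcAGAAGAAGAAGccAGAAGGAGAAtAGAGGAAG
HSP90B1, enriched: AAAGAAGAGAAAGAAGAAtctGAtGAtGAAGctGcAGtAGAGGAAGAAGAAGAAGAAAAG
SLTM, enriched: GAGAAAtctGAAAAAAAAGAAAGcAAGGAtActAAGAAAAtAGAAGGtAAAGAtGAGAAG
CYCS, depleted: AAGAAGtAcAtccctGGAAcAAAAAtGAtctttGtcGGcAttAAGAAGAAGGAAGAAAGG
DERA, depleted: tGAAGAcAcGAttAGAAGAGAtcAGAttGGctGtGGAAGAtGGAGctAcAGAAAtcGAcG

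These windows lie at chr2:99363662-99363721 (plus strand) for EIF5B, chr14:102084897-102084956 (minus) for HSP90AA1, chrX:81114901-81114960 (minus) for HMGN5, chr1:77929410-77929469 (plus) for NEXN, chr12:103938382-103938441 (plus) for HSP90B1 and chr15:58893888-58893947 (minus) for SLTM. Those of CYCS and DERA lie at chr7:25123743-25123802 (minus) and chr12:15962846-15962905 (plus). Of the 60 bases, 59 were purines in EIF5B, 56 in HSP90AA1 and HMGN5, 55 in NEXN, 51 in HSP90B1 and 50 in SLTM, against 41 in both CYCS and DERA. NKAP, whose window spans a junction, had 53 purines, while the depleted CDKN3, NME7, PNPLA4 and UMAD1 had 41 to 44. The leading genes of higher GC content were not parted in this way. Of the enriched ones, COL16A1 had 47 purines, VASN 42 and IGSF8 41. Of the depleted ones, YBX1 had 47, STX8 45, LSM3 43 and MRPL17 41. The share of lysine and glutamate codons did not part the low-GC genes as their purine windows did. CYCS had 24.8%, more than SLTM and HSP90B1 (both 22.9%), NKAP (23.9%) and HSP90AA1 (24.2%). The coding length of CYCS is 315 nt and those of the low-GC enriched genes named here are 846 to 3660 nt. A shorter sequence offers fewer windows to choose from.

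Because these genes were noticed for their change, both features were then described over nuclear protein-coding genes with low GC content (under 46.5%), with no test. By purines in the richest window, the median log2 fold change ran from -0.36 (up to 39 purines, 400 genes) to 0.20 (56 or more, 57 genes). Median coding length rose alongside, from 709.5 to 2466 nt. In the remaining genes the medians of these bins were 0.08 and 0.52, at 813 and 3046.5 nt. The codon share is described next. Over all lengths the 612 low-GC genes with at least 20% lysine and glutamate codons had a median of -0.26 on the log2 scale, with 17.0% enriched and 30.9% depleted, and the 4792 other low-GC genes had -0.21, with 4.38% enriched and 25.6% depleted. Among the 8106 genes of higher GC content, the 394 with at least 20% of these codons had a median of -0.03, with 20.6% enriched and 20.3% depleted. The 7712 others had 0.22, with 27.4% enriched and 11.7% depleted. Among the low-GC genes the values differed by coding length. In the longest quintile of coding length the 121 low-GC genes with at least 20% lysine and glutamate codons had a median log2 fold change of 0.71, and 68 of them (56.2%) were enriched and 0 depleted. The 1001 other low-GC genes of that quintile had a median of 0.07, and 12.4% were enriched. The medians of the rich genes were 0.42, 0.78 and 0.78 in replicate pairs 1, 2 and 3. In the shortest quintile the order was the other way: the 180 genes rich in these codons had a median of -0.70, with 66.7% depleted, and the 853 others had -0.56, with 53.0% depleted.

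**Figure D2:**
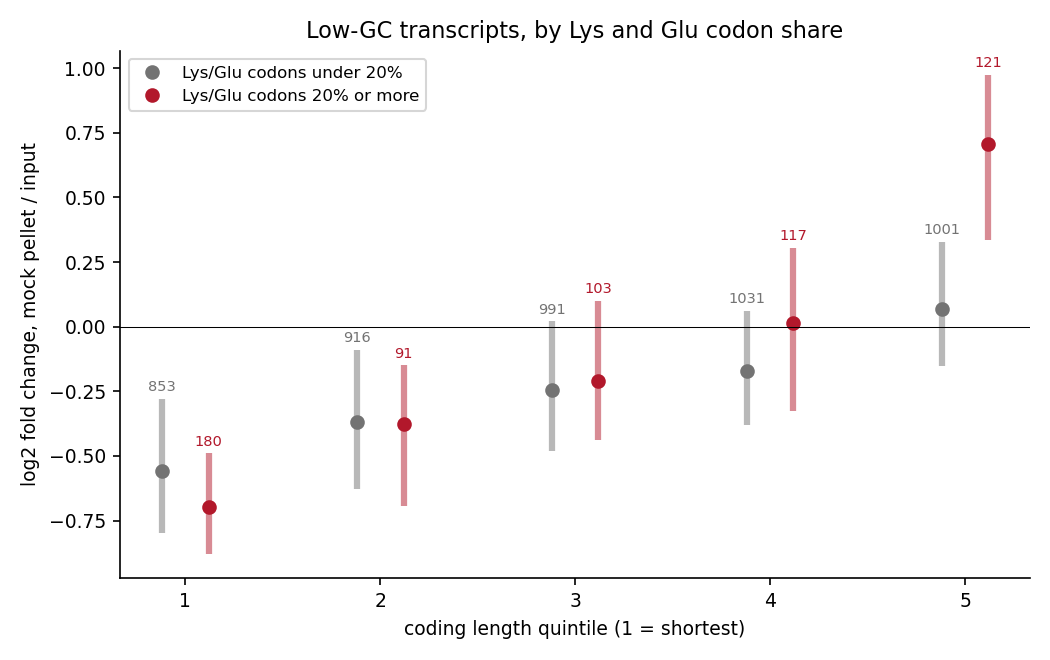
Median log2 fold change of mock pellet over input (vertical) by quintile of coding length (horizontal, 1 = shortest) for nuclear protein-coding genes of low GC content, with genes of at least 20% lysine and glutamate codons in red and all others in grey. Bars are interquartile ranges and numbers above them are genes, and the red point of the longest quintile, at 0.71, stands far above its grey neighbour at 0.07.

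The coding length of an mRNA moved with its change in a graded way. From the shortest to the longest quintile of coding length (bounds 75, 765, 1188, 1662, 2547 and 26769 nt) the median log2 fold changes were -0.39, -0.15, -0.01, 0.09 and 0.36. In the shortest quintile 6.41% of the genes were enriched and 38.9% depleted, and in the longest 34.5% were enriched and 2.55% depleted. Over quintiles of 3′ untranslated length the medians lay between -0.06 and 0.03, and over quintiles of 5′ untranslated length between -0.04 and 0.04. That flat course of the 3′ untranslated length was seen without a correction for GC content. With the replicate block and the GC offset its medians climbed from -0.22 through -0.14, -0.07 and 0.02 to 0.09, while those of coding length ran from -0.45 to 0.28 and those of 5′ untranslated length lay between -0.09 and 0.01. Lengths are those of 1 annotated transcript per gene, not of the isoforms expressed here.

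GC content moved with the change as well. From the lowest to the highest GC quintile the medians were -0.24, -0.19, -0.05, 0.19 and 0.53. When genes were split by both features, the 527 genes of the shortest and lowest-GC cell had a median of -0.60, and the 513 of the longest and highest-GC cell had 0.79, with 68.6% enriched and 0 depleted. With the replicate block and the GC offset the order by length remained in each GC quintile, from medians between -0.52 and -0.42 for the shortest to medians between 0.25 and 0.31 for the longest coding sequences. What part of the change goes with GC content through library preparation was not tested.

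Among functional classes, the machinery of protein synthesis was depleted from the pellet. Of 86 cytosolic ribosomal protein genes 85 were kept, and 60 (70.6%) were depleted and 1 enriched, where 15.8% of all genes were depleted, with a median log2 fold change of -0.60. RPS2, the most abundant, stood at 3508, 3661 and 3946 CPM in the input and at 2413, 2640 and 2386 CPM in the pellet (log2 -0.54, SE 0.12, adjusted p = 0.0140), and RPS27L had the largest decrease (-1.11). The 1 enriched gene was RPL9 (0.57), which has near-identical copies in the genome, so that its count is uncertain, as are those of other ribosomal protein genes with processed pseudogenes. The elongation and termination factors (4 of 13 depleted, median -0.59) and aminoacyl-tRNA synthetases (8 of 20 depleted, median -0.30) had no enriched member. Median coding lengths were 444 nt for the ribosomal protein genes, 1389 nt for the elongation and termination factors and 2074.5 nt for the synthetases. In the shortest quintile of all nuclear protein-coding genes (under 765 nt) 38.9% were depleted, with a median of -0.39. What part of the change of these and the following classes goes with coding length was not tested. With the replicate block 80 ribosomal protein genes, 10 elongation factors and 13 synthetases were depleted. Without input replicate 2 or 3 the ribosomal protein genes depleted numbered 35, and without mock replicate 3 they numbered 23. Without mock replicate 2 or 3, 1 elongation factor and 2 synthetases were still called, and without mock replicate 1, 7 elongation factors were. RPS2 was not called without input replicate 3 or mock replicate 3, and RPL9 not without input replicate 2 or 3 or mock replicate 2 or 3.

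Initiation factors went in both directions. Of 52 kept, 24 were depleted and 4 enriched (33 and 9 with the block), with a median of -0.51. EIF4G1, the large scaffold of the cap-binding complex, stood at 826, 654 and 699 CPM in the input and at 1439, 995 and 1120 CPM in the pellet (log2 0.74, SE 0.17, adjusted p = 0.0165). EIF5A, the small hypusinated factor, stood at 1169, 694 and 735 CPM in the input and at 557, 378 and 340 CPM in the pellet (log2 -0.99, SE 0.26, adjusted p = 0.0249). The groups did not overlap for either gene. EIF5A is also in the list of elongation and termination factors, so it is counted in both lists. Without mock replicate 2 or 3 the depleted factors numbered 12 and EIF5A was not called, and without input replicate 2, input replicate 3 or mock replicate 3 the enriched factors numbered 2 and EIF4G1 was not called.

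The start of ribosomal protein mRNAs is shown next, with 2 long matrix mRNAs for comparison, because the terminal pyrimidine tract is the best known element that these mRNAs share. The first 30 bases from the RefSeq start on GRCh38.p14 are given 5′ to 3′, with a run that opens with C and goes on with at least 4 more pyrimidines in capitals.
RPS3: CCTTTCCTTTCagcggagcgcggcggcaag
RPLP0: CCTTCTCTCgccaggcgtcctcgtggaagg
RPLP1: CCCCTTTCCTCagctgccgccaaggtgctc
RPL13A: CTTTTCCaagcggctgccgaagatggcgga
COL5A1: gtccgcactctccgtccccgcggctggcgc
LAMA5: agacccgccgggctcccgccgcgcgcgctg

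These starts lie at chr11:75399518-75399547 (plus) for RPS3, chr12:120201082-120201111 (minus) for RPLP0, chr15:69452818-69452847 (plus) for RPLP1, chr19:49487608-49487637 (plus) for RPL13A, chr9:134641803-134641832 (plus) for COL5A1 and chr20:62367283-62367312 (minus) for LAMA5. Of the 4 ribosomal protein mRNAs shown none was called, with log2 values of -0.28, -0.46, -0.06 and -0.37, while COL5A1 (1.09) and LAMA5 (0.89) were enriched. Such a start was found for 44 of 68 matched ribosomal protein genes (64.7%) and for 585 of 10924 matched genes in all (5.36%). It did not part the ribosomal protein genes by their change, whose median was -0.58 with and -0.59 without it. In other genes, from the shortest to the longest coding quintile, the medians were -0.42, -0.23, -0.04, 0.03 and 0.35 with the tract and -0.40, -0.15, -0.03, 0.08 and 0.34 without it.

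Nuclear genes for mitochondrial proteins were depleted to a similar extent. Of 83 kept subunits of the respiratory chain 65 (78.3%) were depleted and 1 enriched, with a median of -0.77 that was -0.86, -0.67 and -0.78 in replicate pairs 1, 2 and 3. ATP5IF1, the inhibitor of the ATP synthase, stood at 176, 90.2 and 97.2 CPM in the input and at 52.7, 50.6 and 46.3 CPM in the pellet, without overlap (log2 -1.24, SE 0.25, adjusted p = 0.0104). Of 78 mitochondrial ribosomal proteins 56 (71.8%) were depleted and 1, MRPS26, was enriched, with a median of -0.69. Median coding lengths were 387 nt for the chain subunits and 585 nt for these ribosomal proteins. Both lie within the shortest quintile, where 38.9% of all nuclear protein-coding genes were depleted. Without mock replicate 2 and without mock replicate 3 the depleted subunits of the chain numbered 42 and 40, and the depleted mitochondrial ribosomal proteins 37 and 33. ATP5IF1 was not called without mock replicate 3.

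mRNAs of the mitochondrial genome itself moved the other way. Of 13, 11 were enriched and 1 was depleted, with a median of 1.45, and the share of all counts on the mitochondrial genome was 0.369% to 0.473% in the input and 0.974% to 1.23% in the pellet. MT-ND2, a subunit of complex I (chrM:4470-5511, plus strand), stood at 225, 188 and 153 CPM in the input and at 581, 653 and 581 CPM in the pellet, without overlap (log2 1.72, SE 0.16, adjusted p = 0.00358). The plus strand holds 12 of these mRNAs, of which 11 were enriched (median 1.47) and MT-ND5 was not called, at 301, 273 and 230 CPM in the input and 183, 287 and 250 CPM in the pellet (log2 -0.12, SE 0.19). MT-ND6, the one on the minus strand, was lower, at 204, 134 and 103 CPM in the input and 60.2, 95.9 and 82.0 CPM in the pellet (log2 -0.85, SE 0.27, adjusted p = 0.0459). The groups of MT-ND6 did not overlap, but it was called in only 1 of the 6 sets with a library left out, that without input replicate 3.

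Of the 5 minus-strand mitochondrial tRNA genes kept, 3 were depleted, MT-TC (-3.35), MT-TY (-3.31) and MT-TN (-3.14). Of the other two, neither was called, with log2 values of -1.38 for MT-TE and 0.71 for MT-TP. On the plus strand MT-TL1 was enriched (0.96), and MT-TF (0.51), MT-TV (0.51), MT-TH (-0.95), MT-TG (-1.19) and MT-TL2 (-1.37) were not called. With the block these 7 uncalled tRNA genes were all called, each in the direction of its value. MT-TN fell from 15.4, 17.4 and 18.2 CPM to 1.65, 2.33 and 1.55 CPM (SE 0.19, adjusted p = 0.00358). These 3 lie side by side at chrM:5657-5891. The strand setting of the counting is not given in the sources used here, so reads from the opposite strand cannot be told apart at these genes.

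Cytosolic complexes and enzymes were depleted as well. Median coding lengths were 831 nt for proteasome subunits, 1626 nt for CCT chaperonin subunits and 1302 nt for glycolytic genes. Peroxiredoxins, thioredoxins and glutathione enzymes had 666 nt, and splicing factors and hnRNPs had 1023 nt. Of 37 proteasome subunits kept 19 were depleted and 0 enriched (median -0.72), with PSMA4, a core subunit, at 488, 271 and 271 CPM in the input and 192, 139 and 140 CPM in the pellet (log2 -1.09, SE 0.26, adjusted p = 0.0179). The 8 CCT chaperonin subunits had a median of -0.56, with 3 depleted, and CCT5 the furthest at -0.86. Of 17 glycolytic genes 8 were depleted and 1 was enriched (median -0.38). GAPDH stood at 6814, 6032 and 6021 CPM in the input and at 3250, 2689 and 2683 CPM in the pellet, 2.14-fold lower (log2 -1.10, SE 0.14, adjusted p = 0.00360), and HK2, the hexokinase bound to mitochondria, was the enriched one (0.64, not called without input replicate 2 or 3). Peroxiredoxins, thioredoxins and glutathione enzymes had 15 of 33 depleted and 1 enriched (median -0.49), and splicing factors and hnRNPs 39 of 97 depleted and 11 enriched (median -0.40).

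The replicate block raised these numbers to 32 proteasome subunits, 8 CCT subunits, 13 glycolytic enzymes, 25 redox enzymes and 60 splicing factors. Leaving out mock replicate 2 lowered them to 5, 0, 3, 9 and 16, leaving out mock replicate 3 to 5, 0, 2, 7 and 11, and leaving out input replicate 3 lowered the redox enzymes to 9. Without mock replicate 1 there were 8 CCT subunits and 13 glycolytic enzymes. PSMA4 and CCT5 were not called without mock replicate 2 or 3. Actins and tubulins (8 of 24 depleted, 14 with the block, median -0.36) included ACTB at 7649, 6388 and 6215 CPM in the input and 4327, 3046 and 3173 CPM in the pellet (log2 -0.91, SE 0.18, adjusted p = 0.00980), which was not called without mock replicate 3. Without mock replicate 3 no actin or tubulin gene was called as depleted, and without mock replicate 2 there were 2 and without input replicate 3 there were 4.

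Of the nuclear classes described, the basement membrane and fibrillar matrix had the highest median. Of 56 collagen and laminin genes 40 were kept, of which 21 (52.5%) were enriched and 0 depleted, where 17.6% of all genes were enriched. Their median was 1.02, it was 1.21, 0.86 and 0.91 in the replicate pairs, and 39 of the 40 had a value above 0. COL1A1, the main chain of type I collagen in bone (ENSG00000108821, chr17:50183289-50201632, minus strand), stood at 509, 590 and 636 CPM in the input and at 1324, 1057 and 1362 CPM in the pellet. The groups lay far apart, and COL1A1 was 2.21-fold higher (log2 1.15, SE 0.15, adjusted p = 0.00361). COL16A1, a fibril-associated collagen, stood at 33.9, 45.3 and 55.6 CPM in the input and at 119, 105 and 137 CPM in the pellet (log2 1.45, SE 0.19, adjusted p = 0.00361).

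These genes are long and GC-rich, with a median coding length of 4943 nt and a median GC content of 58.9%. Among all nuclear protein-coding genes of the longest quintile, 47.1% were enriched in GC quintile 4 (median 0.54) and 68.6% in GC quintile 5 (median 0.79). With the block and the GC offset the medians of these cells were 0.31 and 0.28. The median of the collagens and laminins was then 0.68, and 36 were enriched and 0 depleted, whereas the GC offset alone left 12 enriched. What part of their change goes with length and GC content was not tested. The block alone called 39. Fewer were called without input replicate 2 (13), input replicate 3 (14), mock replicate 2 (9) or mock replicate 3 (8), while the list's median stayed between 0.75 and 1.17 with any library left out.

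Other matrix and surface proteins had medians above 0 as well. Their classes had median coding lengths between 2595 and 3916.5 nt, within the longest quintile. In that quintile 34.5% of nuclear protein-coding genes were enriched (median 0.36). Other extracellular matrix proteins had 15 of 38 enriched and 2 depleted (median 0.54). AGRN, the heparan sulphate proteoglycan agrin, stood at 332, 470 and 527 CPM in the input and at 712, 899 and 1077 CPM in the pellet (log2 1.05, SE 0.22, adjusted p = 0.0108), whereas TGFBI, a secreted adhesion protein, was depleted (-0.85). Receptor tyrosine kinases had 16 of 36 enriched and 1 depleted (median 0.58), led by FGFR3 (1.34), a fibroblast growth factor receptor. Cadherins and protocadherins had 18 of 55 enriched and 0 depleted (median 0.65), but clustered protocadherins share their last exons, so their counts are uncertain. ABC transporters (12 of 30 enriched, 1 depleted, median 0.51), integrins (4 of 18 and 0, median 0.50) and ADAM and ADAMTS proteases (5 of 25 and 0, median 0.48) had similar medians. The enriched shares of integrins (22.2%) and of these proteases (20.0%) were near the 17.6% of all genes. ITGA3, an integrin chain that binds laminin, had a log2 value of 1.02 and was not called without mock replicate 2 or 3.

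With the block the enriched members numbered 26 for the other matrix proteins, 30 for the receptor kinases, 41 for the cadherins, 19 for the ABC transporters, 11 for the integrins and 19 for the proteases. Leaving out mock replicate 3 lowered these counts to 5, 10, 3, 5, 2 and 1, in that order, while the enriched genes in all fell from 2916 to 1335. Leaving out mock replicate 2 lowered the other matrix proteins to 8, the cadherins to 4, the integrins to 2 and the proteases to 2. Without input replicate 2 there were 7, 6, 7, 2 and 1 enriched other matrix proteins, cadherins, ABC transporters, integrins and proteases, without input replicate 3 there were 7, 9 and 3 other matrix proteins, cadherins and proteases, without input replicate 1 there were 9 other matrix proteins, and without mock replicate 1 there were 7 integrins.

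Not every class that enters the endoplasmic reticulum was enriched. Proteins that work inside it (translocation, glycosylation and folding) had 9 of 53 enriched and 14 depleted (median -0.09), with HSP90B1 at the top and DAD1, a small subunit of the oligosaccharyltransferase, at the bottom (-1.05). Solute carriers had 43 of 252 enriched and 19 depleted (median 0.11), TMEM proteins 34 of 194 and 36 (median -0.02), lysosomal proteins 8 of 45 and 2 (median 0.18), and secreted growth factors and chemokines 13 of 65 and 1 (median -0.04). Over all nuclear genes with a predicted hydrophobic stretch near the N terminus (1755) the median was 0.16, against -0.03 for the 11706 others. Within tertiles of coding length the medians with and without such a stretch were -0.06 and -0.35 for the shortest, 0.16 and -0.05 for the middle and 0.48 and 0.26 for the longest genes. The stretch was a window of 19 residues with a mean Kyte-Doolittle value of at least 1.6 that starts within the first 30 residues. With the block the enriched and depleted members numbered 13 and 22 for the proteins of the reticulum, 98 and 45 for the solute carriers, 62 and 59 for the TMEM proteins, 20 and 7 for the lysosomal proteins and 24 and 13 for the growth factors. With 1 library left out the enriched counts of these 5 classes were 3 to 11, 21 to 51, 15 to 36, 4 to 11 and 4 to 16, in each case lowest, or equal to the lowest, without mock replicate 3. The depleted counts were 9 to 15, 7 to 20, 24 to 42, 0 to 4 and 1 to 3. With the GC offset the enriched and depleted members numbered 6 and 13 for the proteins of the reticulum, 23 and 24 for the solute carriers, 16 and 41 for the TMEM proteins, 4 and 4 for the lysosomal proteins and 9 and 6 for the growth factors.

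mRNAs of long proteins of the cytoskeleton and the nucleus were enriched too. Median coding lengths were 10710 nt for the giant linkers and 4095 nt for the chromatin genes. Of all genes tested 17.6% were enriched, and of the nuclear protein-coding genes of the longest quintile 34.5% (median 0.36). Giant cytoskeletal linkers and scaffolds had 25 of 50 enriched and 1, the ubiquitin ligase MYCBP2 (-0.56), depleted, with a median of 0.49 and 43 enriched under the block. FLNA, which crosslinks actin, stood at 1240, 1166 and 1174 CPM in the input and at 2108, 1812 and 1909 CPM in the pellet (log2 0.74, SE 0.12, adjusted p = 0.00540). SPTAN1, the non-erythroid spectrin alpha chain, had the largest change of the class (1.02). Chromatin modifiers and remodelers had 42 of 115 enriched (36.5%) and 8 depleted (median 0.34), near the values of the longest quintile as a whole. With the block 77 were enriched and 17 depleted. Among them were ARID4A (1.07) and CHD4 (0.58) above and SMARCB1 (-0.79) below. Without input replicate 2, input replicate 3 and mock replicate 3 the enriched linkers numbered 13, 13 and 12 and the enriched chromatin genes 26, 27 and 21, and CHD4 was not called in any of these sets. The depleted chromatin genes numbered 5 without input replicate 2 or 3 and 1 without mock replicate 2 or 3, and SMARCB1 was not called without either of these mock libraries. MYCBP2 was called in 2 of the 6 sets, those without input replicate 3 or mock replicate 1.

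In several classes the extremes were 1 large and 1 small protein. Of 87 kinesins, dyneins and myosins 24 were enriched (27.6%) and 9 depleted (46 and 16 with the block, median 0.37). Their median coding length was 4104 nt, within the longest quintile, where 34.5% of nuclear protein-coding genes were enriched. KIF20B, a large mitotic kinesin, stood at 124, 78.6 and 79.3 CPM in the input and at 202, 163 and 182 CPM in the pellet (log2 0.99, SE 0.20, adjusted p = 0.00999). DYNLRB1, a dynein light chain with a coding length of 288 nt, stood at 106, 94.6 and 97.6 CPM in the input and at 45.5, 43.2 and 40.6 CPM in the pellet (log2 -1.17, SE 0.11, adjusted p = 0.00358). Neither gene overlapped between groups. The same contrast was seen between GOLGA4 (1.27) and COPZ1 (-0.87) in the Golgi, CENPE (0.93) and MAD2L1 (-0.85) at the kinetochore, and PRRC2C (0.85) and YBX1 among stress granule proteins. These pairs were picked as the extremes of their lists, so they describe the spread and test nothing. Without input replicate 2, input replicate 3, mock replicate 2 and mock replicate 3 the enriched motors numbered 13, 13, 14 and 12, and the depleted motors 5, 3 and 3 without the last 3 of these. MAD2L1 was not called without mock replicate 2 or 3.

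Core stress granule proteins as a group did not stand out, with 7 of 50 enriched and 11 depleted (median -0.09), 10 and 21 with the block, nor did proteins of the integrated stress response, with 3 of 28 enriched and 5 depleted (median -0.05). PABPC1, the cytoplasmic poly(A)-binding protein, had a log2 value of 0.05 (SE 0.13, not called). C2H2 zinc finger proteins had 54 of 426 enriched and 59 depleted (median -0.07), and immediate early regulators 7 of 36 and 5 (median 0.12). With the block the stress response had 11 and 9, the zinc finger genes 101 and 139 and the immediate early genes 15 and 7. With the GC offset the immediate early genes had 2 enriched and 7 depleted, and 11 and 12 with the block and the GC offset, while the zinc finger genes had 36 and 45, and 98 and 113. JUN, an AP-1 transcription factor, stood at 222, 209 and 195 CPM in the input and at 413, 421 and 361 CPM in the pellet (log2 0.97, SE 0.12, adjusted p = 0.00358). Leaving out mock replicate 3 left 3 enriched and 4 depleted stress granule genes, 0 and 1 of the stress response, 25 and 16 zinc finger genes, and 4 and 1 immediate early genes.

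**Figure D3:**
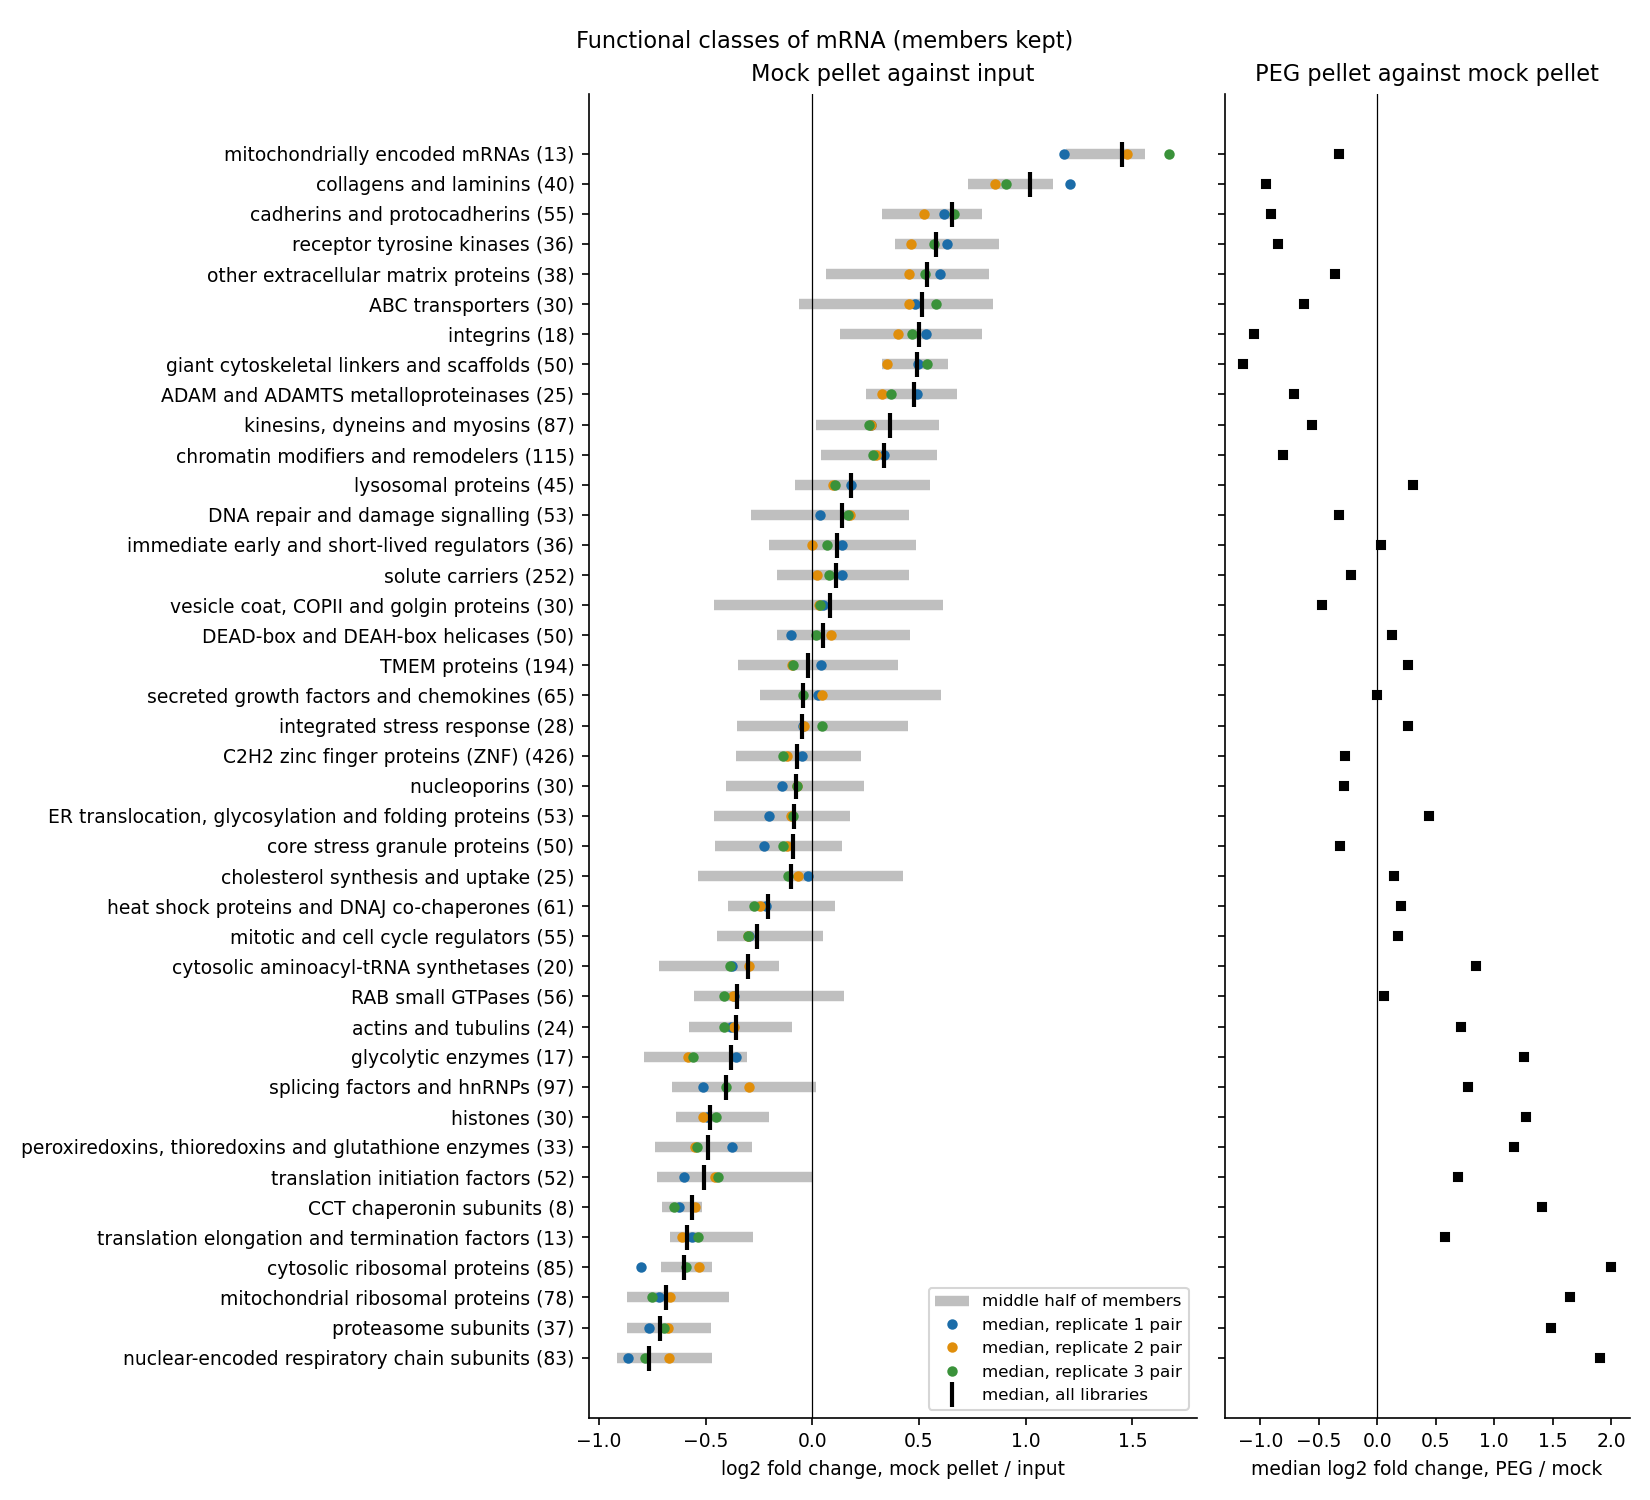
Median log2 fold change of mock pellet over input (left, horizontal) for each functional class (vertical, genes kept in brackets), with grey bars for the interquartile range of members, coloured points for the replicate pairs and a black line for all libraries, and the median of PEG pellet over mock pellet (right). Mitochondrially encoded mRNAs and matrix genes lie at the top, respiratory chain, proteasome and ribosomal protein genes at the bottom, and for most classes away from 0 the right panel has the opposite sign.

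Among well-expressed RNAs that do not code for protein, BCYRN1, a short cytoplasmic RNA of neurons and tumours (chr2:47335315-47335514, plus strand), had the largest decrease. It stood at 907, 212 and 295 CPM in the input and at 91.5, 34.7 and 23.7 CPM in the pellet (log2 -3.20, SE 0.70, adjusted p = 0.0134). The groups did not overlap, but input replicate 1 was far above the others, BCYRN1 was not called without mock replicate 2 or 3, and the many related repeats in the genome make its count uncertain. NEAT1, the scaffold of nuclear paraspeckles, was not called, with 534, 804 and 844 CPM in the input and 715, 1290 and 1023 CPM in the pellet (log2 0.51, SE 0.25, adjusted p = 0.160), and its groups overlapped. Of 267 LINC genes kept 23 were enriched and 32 depleted (median -0.15), and of 364 antisense genes 35 and 31 (median -0.05), below the 17.6% and 15.8% of all genes. The pseudogene MTATP6P1 (1.53), a copy of mitochondrial DNA in chromosome 1, was enriched like the mitochondrial mRNAs it resembles. With the block 53 LINC genes were enriched and 72 depleted, and 74 and 83 antisense genes. With 1 library left out 7 to 32 LINC genes were enriched and 4 to 36 depleted, the fewest without mock replicate 2 and mock replicate 3. Of the antisense genes 13 to 35 were enriched and 6 to 39 depleted, the fewest of both without mock replicate 3.

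Each pellet of the other reactions was compared directly with the mock pellet. With PEG 5207 genes (31.3%) were higher and 5350 (32.2%) lower than in the mock pellet, 63.6% together, and the direction of most classes was the opposite. Ribosomal protein genes had 84 of 85 higher and 0 lower (median log2 2.00), respiratory chain subunits 80 of 83 higher (median 1.90), and proteasome subunits 34 of 37 higher (median 1.48). Collagens and laminins had 28 of 40 lower and 0 higher (median -0.95), giant linkers 47 of 50 lower (median -1.15) and chromatin genes 88 of 115 lower (median -0.80). GAPDH was higher with PEG than in mock by 2.23 on the log2 scale, and GOLGA4 was lower (-2.25). Scaling by library size alone shifted the median of all genes in this comparison from -0.03 to -0.49, with 3125 genes higher and 8267 lower. PEG replicate 1 had the smallest total of the series, 15341973. PEG replicates 2 and 3 had 25485069 and 25675182, and input replicate 1 had fewer than these, 23101982.

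Of the 13 mitochondrial mRNAs 1 was higher and 5 were lower with PEG than in mock (median -0.32), where 31.3% of all genes were higher and 32.2% lower. Their log2 values ran from -1.64 for MT-ND4L and -1.29 for MT-CO1 to 1.19 for MT-ND3. Few differences were called between the mock pellet and those of dsRNA or silvestrol. In both comparisons 0 genes were called (374 and 35 at an unadjusted p under 0.05 in edgeR's test), with DESeq2 62 genes were lower with dsRNA and 0 changed with silvestrol, and with the block 25 genes were higher and 441 lower with dsRNA (2.81%, with 0.15% and 2.65% in the 2 directions) and 2 higher and 0 lower with silvestrol (0.012%). Against the same inputs the medians of collagens and laminins were 1.02 in mock, 1.12 with dsRNA and 1.05 with silvestrol, and those of ribosomal protein genes -0.60, -0.66 and -0.70. Vesicle coat, COPII and golgin genes had medians of 0.08, -0.32 and 0.03, so that the sign differed with dsRNA, and nucleoporins had -0.08, -0.28 and -0.13. In the direct comparison of dsRNA with mock, however, the median was only -0.035 for the vesicle coat genes and -0.023 for the nucleoporins. It was 0.012 for all genes, so the medians against input overstate a shift of these lists. With the block 6 of the 30 vesicle coat genes and 3 of the 30 nucleoporins were lower with dsRNA than in mock. These comparisons share the input libraries.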

How the data were processed

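Per the labels, reads were trimmed with Trimmomatic 0.36, aligned with STAR 2.5.2b to GRCh38 and counted per gene with featureCounts (Subread 1.5.2). The strand setting, annotation release and treatment of multi-mapping reads are not given in the sources used here. The authors deposited 1 table of raw, unnormalised counts per library. From 56898 identifiers found in GENCODE release 29, of 57500, biotype, coding length and GC content were taken.

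Genes were filtered as described above, scaled by TMM and compared by the quasi-likelihood F test of edgeR 4.0.16 (prior count 2, Benjamini-Hochberg adjustment, threshold 0.05, R 4.3.3), always with only the 6 libraries concerned. DESeq2 1.42.0 was an alternative, as were DESeq2 size factors, library size alone, other filters, all 5 groups in 1 fit, a GC offset (loess, span 0.3), the replicate block, and each library left out. Deviations of same-numbered mock and input libraries from their group means correlated at 0.785, 0.621 and 0.600. Replicate numbers in the labels were therefore taken to pair the libraries, in the replicate block and in the values per pair. The calls and p-values of the main fit do not use this pairing. Mock replicates 2 and 3 correlated with the other-numbered input at 0.521 and 0.629, so the pairing mostly parts replicate 1. The fit was tested on simulated data.

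Named genes were the 10 enriched and 10 depleted nuclear coding genes, and 5 and 5 others, with the largest called changes at an average log2 CPM of at least 3 without overlap, the 2 most abundant members and the called extremes of each list, the transcripts the study names and the markers. Codon and purine features were chosen after values were seen. Members and lists were chosen with earlier results of these data known. Lists carry counts and medians and no test. Plots were made in Python 3.11.15 (matplotlib 3.10.9). One gene that the rule names is not reported here.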

Additional observations from a re-analysis of the deposited data

Results flagged for a closer look

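The mock and PEG pellets went in opposite directions from input for a minority of the genes tested, by a direct test of the difference between the pellets (edgeR's quasi-likelihood test). Of the 16612 genes tested, 792 were enriched in the mock pellet, depleted in the PEG pellet and different between them, and 1040 were the other way round. The number that moved the same way in both pellets is not given here. Both comparisons with input share the 3 input libraries. STX8, a SNARE protein of endosomes, was depleted in the mock pellet (log2 -1.38) and was higher with PEG than in mock by 2.12 on the log2 scale.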

How the results depend on the processing

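The replicate block moved the enriched and depleted counts from 2916 and 2625 to 5404 and 5003, the block with GC offset to 4472 and 5417, leaving out replicate 1 of both groups (chosen after seeing the data) to 5296 and 5086, the GC offset the enriched count to 1808, and a log2 change over 1 to 505 and 226. With 1 library left out the counts were 1335 to 3068 and 1017 to 2854. Scaling by library size gave 3125 genes higher and 8267 lower with PEG than in mock. Against mock the block gave 25 genes higher and 441 lower with dsRNA and 2 higher with silvestrol, and DESeq2 62 lower with dsRNA. Of 31 lists with a median beyond 0.3 in size, 29 kept its sign in every setting run, the exceptions being epithelial markers and cytoplasmic small RNAs. Of 175 named genes called, 96 were called with each library left out. MRPS26 turned to -0.0039 with block and GC offset, and TXNRD2, TMEM8A and AHNAK turned to -0.16, -0.15 and -0.046 with the GC offset and to -0.16, -0.15 and -0.044 with block and GC offset. These causes were not tested. Depth limits genes near the count minimum, and reads shared by overlapping genes, antisense partners or close copies cannot be separated.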
